A study of Drosophila melanogaster with 6 samples.

Results

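The sarcomere and muscle attachment genes of Drosophila melanogaster were followed in whole female third-instar larvae. These were labelled as roX1 roX2 mutants, and as controls that carry a roX1 transgene in the same mutant background. They are 35 listed genes for the proteins of the contractile unit, of its calcium store and of the sites where muscle fibres are anchored. A gene was read where the platform annotation gives its symbol as the only symbol of a probeset, a set of short probes for a transcript, and the brightest of its probesets over the 6 arrays stood for it. On this basis 29 of the 35 genes were read, of 11982 genes read in all, through 52 probesets. Unc-89, which codes for obscurin, is listed in the annotation as Obsc and was matched through the RefSeq synonyms. Mhc, Tm1, wupA, TpnC25D, TpnC47D and Mef2 were not analysed here. Flightin (fln) and Zasp67 lay under the level filter described next, so 27 genes were tested.

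The sarcomere is the repeating unit of a muscle fibre, in which thick filaments of myosin slide along thin filaments of actin. Calcium released from an internal store binds troponin on the thin filament, tropomyosin moves aside and myosin can pull. The pump SERCA then returns the calcium to the store. Thin filaments are held at the Z-disc, elastic proteins of the titin type link Z-disc and thick filament, and integrins tie the ends of the fibre to tendon cells through the extracellular matrix. In a third-instar larva the body wall muscles that drive crawling are large fibres with many nuclei, and the gut and the heart have muscle of their own.

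Mutant larvae carried the genotype roX1SMC17ADf(1)52 with the transgene [w+4D4.3], and control larvae carried the same alleles and transgene together with [hsp83-roX1+], a roX1 copy under the hsp83 promoter. The controls therefore lack the normal roX genes as well and are not a wild-type strain. The sites of the transgenes and the number of independent lines are not given in the labels. Each group had 3 arrays, each with RNA of a separate pool of 50 whole larvae, so fewer muscle cells and less muscle RNA per cell cannot be told apart in these values. The series asks whether females need roX RNA for normal gene expression. The roX1 and roX2 transcripts were not analysed here, so the genotype labels were not checked against them. Muscle RNA was present in all pools, since Mlc1, Mf and Zasp66 were at 12.64 or higher on every array where the deposited values span 2.40 to 14.5.

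Values are log2 expression values, normalized between arrays by the authors. A level filter left out the 40% of probesets with the lowest mean, which set the lowest mean of a tested probeset at 4.51. Over the tested probesets, r of pairs of arrays was 0.978 to 0.996 in a group and 0.977 to 0.991 across the groups. Control replicate 1 and mutant replicate 3 stood apart from the other arrays. The median absolute deviation of all 8882 tested genes from their mean over 6 arrays was 0.135 and 0.106 on these arrays, against 0.0702 to 0.0865 on the other 4. Limma's array weights, which are lower for arrays that fit their group less well, were 0.275 and 0.425 for them and 1.19 to 2.92 for the others. Results on the members are therefore also given without these arrays. In the controls for RNA quality, the 3' minus 5' signal of actin for control replicate 1 was 0.716, between the 0.704 and 0.744 of the other controls. For mutant replicate 3 it was 0.902, between the 0.770 and 0.940 of the other mutants. All 3 mutants thus lay above all 3 controls, with means of 0.871 ± 0.090 and 0.721 ± 0.021 (SD, n = 3 each). The same difference for GAPDH was 1.35 and 1.23 on these arrays and 1.36 to 1.46 on the other 4. For eIF-4a it was 1.27 to 1.44 in controls and 1.40 to 1.44 in mutants. The part of RNA quality in the results was not tested.

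No sarcomere or attachment gene was called as different between mutants and controls, while many sarcomere genes differed widely between arrays of the same genotype. Each pool was read on a single array, so pool, RNA preparation and array cannot be told apart. Differences between pools are meant in this sense below. Of 27 tested members, 0 had a limma adjusted p under 0.05, and 0 had an unadjusted p under 0.05; among all 8882 tested genes the shares were 0.529% and 9.05%. Of the 19 tested members of the filaments and the Z-disc, 13 had the highest of their 6 values on mutant replicate 3 and 10 had the lowest on control replicate 1. Among all tested genes 11.6% were highest on mutant replicate 3 and 25.9% were lowest on control replicate 1.

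**Figure D1:**
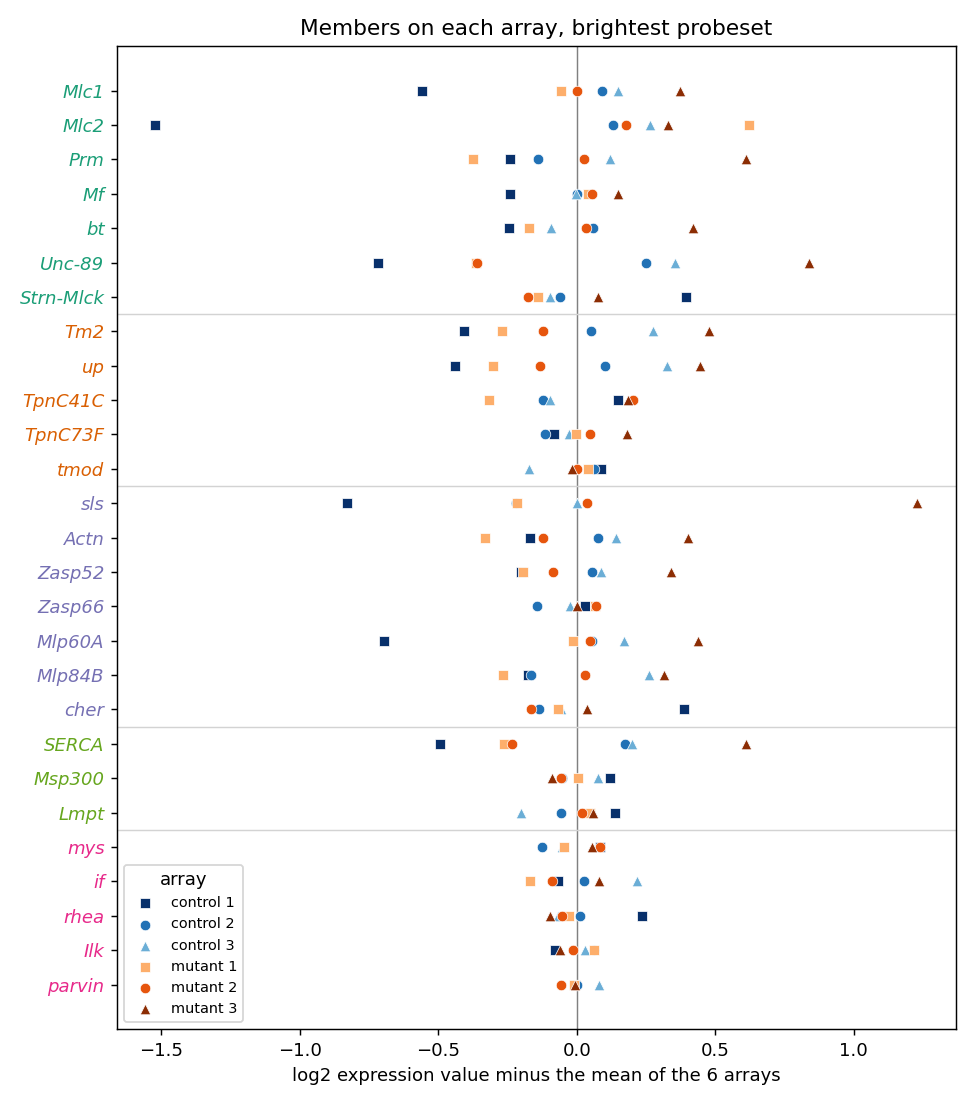
Each row is a tested member (brightest probeset) and each symbol an array. The horizontal axis gives the log2 expression value minus the gene's mean over 6 arrays, and the rows are grouped from top to bottom as thick filament, thin filament, Z-disc and elastic filament, calcium store and others, and integrin attachment. Control replicate 1 lies far left for Mlc2, sls, Unc-89 and Mlp60A, mutant replicate 3 lies far right for sls and Unc-89, and the 5 integrin attachment genes at the bottom lie closer to 0.

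Thick filament genes held the widest spread of the module. Mlc2, the regulatory light chain of muscle myosin (chromosome arm 3R), had values of 7.48, 9.14 and 9.27 in control replicates 1 to 3 and 9.62, 9.18 and 9.33 in mutant replicates 1 to 3. Control replicate 1 was low by itself, the other 5 values lay together, and the groups overlapped. The difference (log2, mutant minus control) was 0.75 (SE 0.46; limma adjusted p = 0.675), and it was 0.18 without control replicate 1. Mlc1, the essential light chain (3R), had 12.64, 13.29 and 13.35 in controls and 13.14, 13.19 and 13.57 in mutants. It was lowest on control replicate 1 and highest on mutant replicate 3, and the groups overlapped (difference 0.21, SE 0.21; limma adjusted p = 0.792).

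Unc-89 (2R), a giant kinase-domain protein of the M-line, had 6.07, 7.04 and 7.14 in controls and 6.43, 6.43 and 7.63 in mutants. Here the lowest mutants lay under the higher controls, so the 2 group means, 6.75 ± 0.59 and 6.83 ± 0.69 (mean ± SD, n = 3 each), were almost equal. The difference was 0.077 (SE 0.41; limma adjusted p = 0.964). Prm, the paramyosin of the filament core (3L), had 11.28, 11.38 and 11.64 in controls and 11.14, 11.55 and 12.13 in mutants. Its values overlapped, with mutant replicate 1 lowest and mutant replicate 3 highest (difference 0.18, SE 0.24; limma adjusted p = 0.855). bt, which codes for the elastic protein projectin and lies on chromosome 4, had 11.34, 11.64 and 11.49 in controls and 11.41, 11.61 and 12.00 in mutants. The groups overlapped and mutant replicate 3 was again highest (difference 0.19, SE 0.16; limma adjusted p = 0.754).

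Mf, the thick filament protein myofilin (3R), was among the steadier genes of this role. Its values were 12.79, 13.03 and 13.03 in controls and 13.07, 13.09 and 13.18 in mutants. All mutants lay above all controls, with a difference of 0.16 (SE 0.093; limma adjusted p = 0.657). Such a separation in the higher direction held for 2 of the 27 tested members, Mf and TpnC73F, and for 7.23% of all tested genes. In the lower direction it held for 0 of the 27 and for 9.09% of all tested genes. Strn-Mlck (2R), a large protein with a myosin light chain kinase domain, ran the other way between pools, with 9.21 on control replicate 1 and 8.64 to 8.89 on the other 5 arrays (difference -0.16, SE 0.15; limma adjusted p = 0.776). fln, a thick filament protein of adult flight muscle, was between 3.36 and 3.69 on the 6 arrays, below the level filter in both groups.

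Of the 5 tested thin filament genes, Tm2 and up followed the order of pools of the other members. Tm2, a tropomyosin (3R), had 11.88, 12.34 and 12.56 in controls and 12.02, 12.16 and 12.76 in mutants. The up gene, for troponin T (X), had 10.20, 10.74 and 10.97 in controls and 10.34, 10.51 and 11.08 in mutants. Both genes were lowest on control replicate 1 and highest on mutant replicate 3, with overlapping groups. Their differences were 0.056 (SE 0.24) for Tm2 and 0.0063 (SE 0.25) for up, with limma adjusted p-values of 0.956 and 0.995.

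TpnC73F, a calcium-binding troponin C of larval muscle (3L), was nearly constant at 12.47, 12.44 and 12.53 in controls and 12.55, 12.60 and 12.73 in mutants. The groups did not overlap, and the difference was 0.15 (SE 0.079; limma adjusted p = 0.635). TpnC41C, another troponin C (2R), read between 5.11 and 5.63 on the 6 arrays, lowest on mutant replicate 1 and highest on mutant replicate 2, with overlapping groups (difference 0.047, SE 0.16; limma adjusted p = 0.944). tmod, tropomodulin, which caps the free end of the thin filament (3R), stayed between 9.77 and 10.03 (difference 0.016, SE 0.091; limma adjusted p = 0.968).

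At the Z-disc, sls had the largest difference of this role. It codes for Sallimus, a titin-like protein that links the Z-disc to the thick filament (3L). Its values were 7.36, 7.97 and 8.19 in controls and 7.97, 8.22 and 9.42 in mutants. Control replicate 1 was low, mutant replicate 3 was high, and the other 4 values lay between 7.97 and 8.22. The difference was 0.70, a 1.62-fold higher mean in the mutants (SE 0.40; limma adjusted p = 0.657), and it was 0.020 without these 2 arrays. Mlp60A, a muscle LIM protein (2R), had 12.29, 13.04 and 13.16 in controls and 12.97, 13.03 and 13.42 in mutants (difference 0.31, SE 0.24; limma adjusted p = 0.733). Control replicate 1 was again the low value.

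Actn, alpha-actinin, the cross-linker of actin at the Z-disc (X), ranged from 10.04 to 10.78, and Zasp52, a PDZ-LIM protein that binds it (2R), from 10.41 to 10.95. Mlp84B, a second muscle LIM protein (3R), ranged from 10.7 to 11.3. All 3 genes were highest on mutant replicate 3, their groups overlapped, and their differences were -0.035, 0.038 and 0.052 (limma adjusted p = 0.966, 0.952 and 0.945). Zasp66 (3L) belongs to the same protein family as Zasp52 and did not follow the pools: it was 13.41, 13.23 and 13.36 in controls and 13.44, 13.45 and 13.38 in mutants (difference 0.092, SE 0.077; limma adjusted p = 0.746). Zasp67 was between 3.35 and 3.58, below the level filter in both groups. cher, the actin cross-linker filamin (3R), was 11.2 on control replicate 1 and 10.6 to 10.8 on the other 5 arrays (difference -0.13, SE 0.15; limma adjusted p = 0.816).

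SERCA, the calcium pump of the sarcoplasmic reticulum (2R), had 10.86, 11.52 and 11.55 in controls and 11.09, 11.11 and 11.96 in mutants. It had the order of pools seen for Tm2, up and Unc-89, with overlapping groups (difference 0.077, SE 0.29; limma adjusted p = 0.946). Msp300, a nesprin that anchors nuclei and mitochondria in the fibre (2L), stayed between 7.71 and 7.92 (difference -0.097, SE 0.078; limma adjusted p = 0.741). Lmpt, which codes for the LIM domain protein Limpet (3L), stayed between 10.6 and 11.0 (difference 0.082, SE 0.0995; limma adjusted p = 0.831).

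Integrin attachment genes differed little between pools, with a median within-group SD of 0.0904. The mys gene codes for the beta subunit of the position-specific integrins and if for an alpha subunit found on the muscle side of the tendon junction (both on X). Their values were 10.1 to 10.3 for mys and 8.28 to 8.67 for if. rhea, which codes for talin, the link from integrin to actin (3L), was 10.4 on control replicate 1 and 10.04 to 10.15 elsewhere. Ilk, the integrin-linked kinase (3L), was 9.57 to 9.71, and parvin, its binding partner (X), 9.65 to 9.78. The groups overlapped for all 5 genes, and their differences lay between -0.12 for rhea and 0.062 for mys (limma adjusted p from 0.741 to 0.977). On control replicate 1 the median deviation of these genes from the mean of 6 arrays was -0.0076, where that of the thick filament genes was -0.24. On mutant replicate 3 the medians were -0.0053 and 0.37. All values are of whole larvae, and the part of muscle in the RNA of the 5 attachment genes was not tested.

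**Figure D2:**
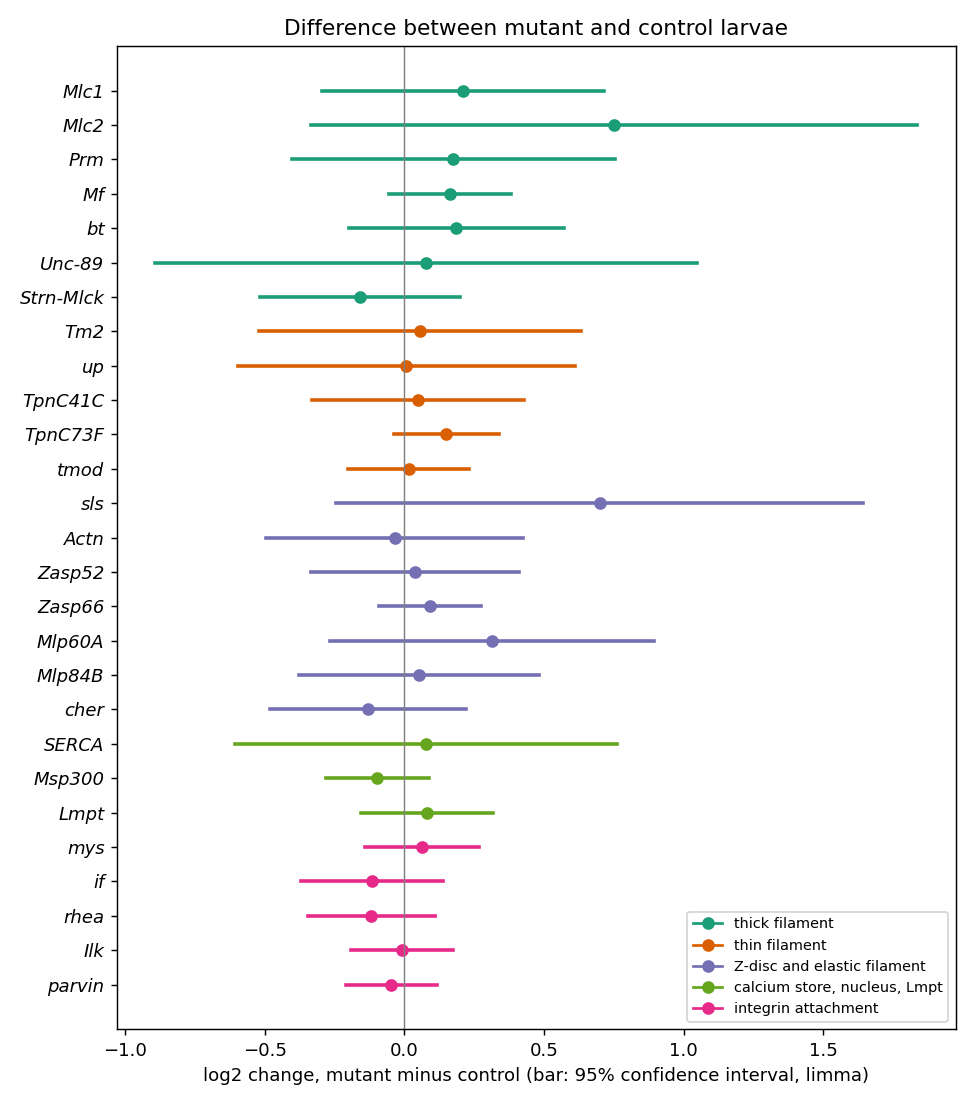
Each row is a tested member, the point is its log2 change (mutant minus control, 3 arrays per group) and the bar the 95% confidence interval from limma. Every interval includes 0, the widest belong to Mlc2, Unc-89 and sls, and the narrow ones to parvin, Ilk and Zasp66.

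The comparison of mutant with control had little resolution for the genes that followed the pools. The median log2 change of the 27 tested members was 0.056 and that of all tested genes -0.0048. The mutant mean was the higher one for 19 of the 27, against 48.8% of all tested genes. The 95% interval included 0 for all 27, lay within 0.5 of 0 for 16 and reached past 1 for 3, Mlc2, Unc-89 and sls. The direction of the median rested on the arrays that stood apart: it was -0.0013 without control replicate 1, -0.057 without mutant replicate 3 and -0.052 without both. With array weights it was -0.037.

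Without control replicate 1 and mutant replicate 3, a choice made after the values were seen, 18 of the 27 tested members were lower in the mutants. The change of Unc-89 was then -0.66 (SE 0.070; limma adjusted p = 0.0506), that of SERCA -0.44 (SE 0.063; limma adjusted p = 0.0960), that of up -0.43 (SE 0.11; limma adjusted p = 0.197) and that of Tm2 -0.36 (SE 0.11; limma adjusted p = 0.234). None of the members was called in this fit of 2 against 2 arrays, in which 0.405% of all tested genes were called. At an unadjusted p under 0.05 there were 7 members, Unc-89, SERCA, up, Actn, Tm2, Zasp52 and if, all lower. Among all tested genes 7.91% were lower at this threshold. In all 7 members control replicate 1 was the lowest control and mutant replicate 3 the highest mutant, so leaving these arrays out had to move the change down. Of the 27 members 10 were lowest of all on the former and highest on the latter, against 5.36% of all tested genes. The SE fell as well, from 0.41 to 0.070 for Unc-89 and from 0.29 to 0.063 for SERCA. The counts of lower members and the p-values in this fit were thus partly set by the choice of arrays. They are no evidence of a change. In the fit of 6 arrays the changes of Unc-89, SERCA, up, Tm2 and Zasp52 were above 0, and those of Actn and if below 0.

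Many filament genes varied more between pools of a genotype than the median tested gene did, and most integrin attachment genes varied less. The within-group SD of the log2 values, pooled over both groups, had a median of 0.229 over the tested members and of 0.127 over all tested genes. It was above 0.281, the 90th percentile of all tested genes, for 10 of the 27. These were Mlc2 (0.722), Unc-89 (0.643), sls (0.625), SERCA (0.448), up (0.393), Mlp60A (0.375), Prm (0.374), Tm2 (0.373), Mlc1 (0.323) and Actn (0.292). At the other end stood parvin (0.0393), Ilk (0.0679), Zasp66 (0.0687), Msp300 (0.0721) and TpnC73F (0.0736). Without control replicate 1 and mutant replicate 3 the median over the members was 0.0714. The value of all tested genes without these arrays is not given here. The 0.0714 can therefore not be set against 0.127, which is from all arrays.

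**Figure D3:**
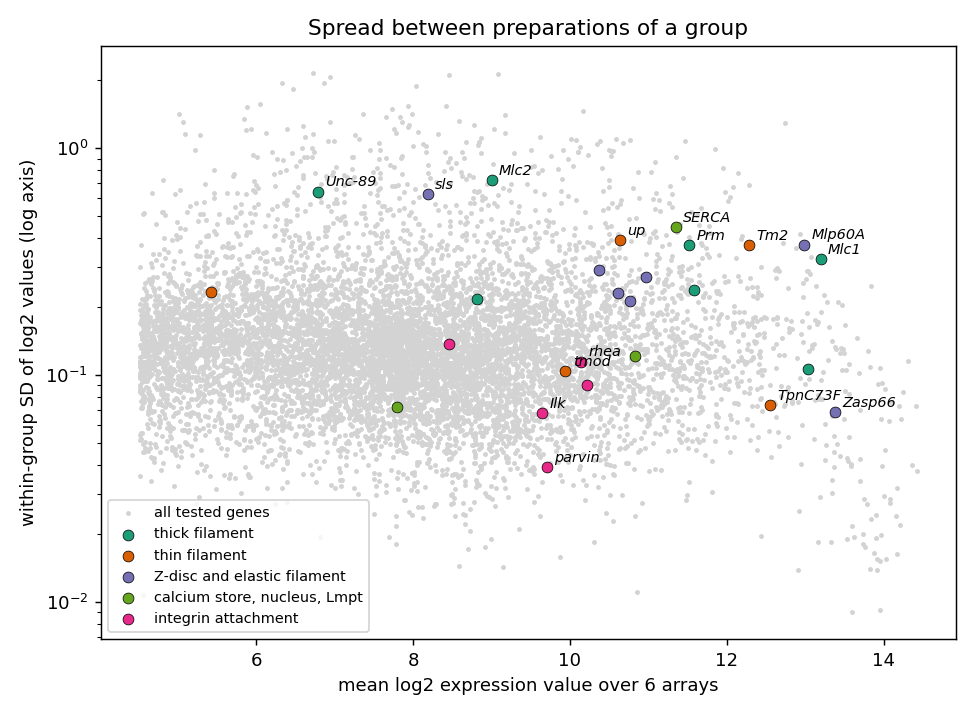
The within-group SD of the log2 values (vertical, log axis) is plotted against the mean log2 value over 6 arrays (horizontal) for every tested gene in grey and for the 27 tested members in the colour of their role. Among the members Mlc2, Unc-89 and sls stand highest, and parvin, Ilk and Zasp66 lowest.

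Some genes of each filament and of the Z-disc followed the same order of pools, and others did not. As a description, each tested member was correlated with the median of the other members over the 6 arrays. These share RNA pools and arrays, and no p is given. Pearson's r was above 0.8 for 12 of 27 members, from 0.832 for Mlp84B to 0.966 for Tm2. The share of all tested genes with such an r to the members' median is not given here. The count can therefore not be read as particular to these genes. Spearman's rho was 1 for Mlc1, Unc-89, Tm2, up, Zasp52, Mlp60A and SERCA. When control replicate 1 and mutant replicate 3, the arrays farthest from the median, were left out, r stayed above 0.8 for 8 of the 12 over the 4 arrays left, among them up (0.937), Tm2 (0.945), Actn (0.932), Mlc1 (0.919) and Zasp52 (0.909). For bt it fell to 0.231 and for sls to 0.499, so their r over 6 arrays rested in part on those arrays. Mlc2 had r = 0.464 and turned to -0.809 without them. These r include the difference between the groups. With group means taken out first, r over the same 4 arrays was 0.703 for bt, 0.998 for sls and 0.588 for Mlc2. Those means were taken with the arrays left out, so these r do not show likeness free of them.

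In 9 members r was below 0. These were rhea (-0.753), Msp300 (-0.669), tmod (-0.534), cher (-0.385), Lmpt (-0.357), Strn-Mlck (-0.326), Zasp66 (-0.279), Ilk (-0.116) and mys (-0.038). Of all 27 tested members 7 were highest on control replicate 1, against 28.1% of all tested genes. They were rhea, Msp300, Lmpt, cher, Strn-Mlck, tmod and mys, all with r below 0. The members' median was itself low on that array (-0.17), so an r below 0 and a high value there are not separate results. The median r of all pairs was 0.697 among the 7 thick filament genes, 0.133 among the 5 thin filament genes and 0.205 among the 7 Z-disc genes. It was -0.419 among SERCA, Msp300 and Lmpt and -0.189 among the 5 integrin attachment genes. It was 0.136 over all 351 pairs of tested members and 0.0366 over all pairs of tested genes. These r include the difference between the groups. With group means taken out, the medians were 0.693 for thick filament, 0.128 for thin filament and 0.594 for Z-disc genes. They were -0.5 among SERCA, Msp300 and Lmpt, -0.218 for integrin attachment, 0.263 for all members and 0.0577 for all tested genes.

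The 8 genes outside the module with the highest r to the members' median over the 6 arrays had r between 0.984 and 0.992. They were CG5023, CG1648, CG6330, CG7328, Argk1, which codes for arginine kinase, pncr003:2L, which carries a noncoding name and codes for the sarcolamban peptides that bind SERCA, AGBE, a glycogen branching enzyme gene, and levy, a gene for a cytochrome c oxidase subunit. Argk1 had 13.03, 13.25 and 13.45 in controls and 13.16, 13.25 and 13.57 in mutants. Over the 4 arrays without control replicate 1 and mutant replicate 3 their r lay between 0.928 and 0.995. These genes were picked by their r among 8882, so r is a description of likeness only.

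Several members have more than 1 tested probeset, and these did not always follow the same order of pools. For 10 members with 15 further tested probesets, r between the brightest and the further probeset over 6 arrays was above 0.8 for 5 and below 0 for 5, and 8 of the 15 changes had the sign of the brightest. In sls, 1628671_a_at followed the brightest probeset, 1635445_at (r = 0.976), with 5.85, 6.78 and 6.79 in controls and 6.45, 6.63 and 7.90 in mutants. The third, 1634102_at, had 6.91, 6.82 and 6.84 in controls and 6.50, 6.55 and 7.12 in mutants, a change of -0.14 (SE 0.17; limma adjusted p = 0.835) where the brightest had 0.70. Control replicate 1 was thus low on 2 of the sls probesets and not on the third.

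The 3 probesets of SERCA were all lowest on control replicate 1 and highest on mutant replicate 3, with r of 0.931 and 0.981 to the brightest. In Prm the second probeset had r = 0.964. In Lmpt, 1629499_at had 6.99, 7.36 and 7.36 in controls and 7.38, 7.43 and 7.77 in mutants, all mutants above all controls (change 0.29, SE 0.15; limma adjusted p = 0.623), and r = -0.171 to the brightest probeset, which was steady. In Msp300, whose brightest probeset was also steady, 3 others had r from -0.424 to -0.092 to it, and 1625210_a_at was lowest on control replicate 1 at 6.38 and highest on control replicate 3. None of the 42 tested probesets of the members was called, against 0.551% of all tested probesets (smallest limma adjusted p = 0.623). Which transcripts each probeset reads was not analysed here. The suffixes _s_at and _x_at, carried by the brightest probesets of Tm2, tmod, Mlp84B, cher, SERCA and mys, by the second of Prm and by an untested one of Msp300, mark sets whose probes can match other transcripts as well.

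**Figure D4:**
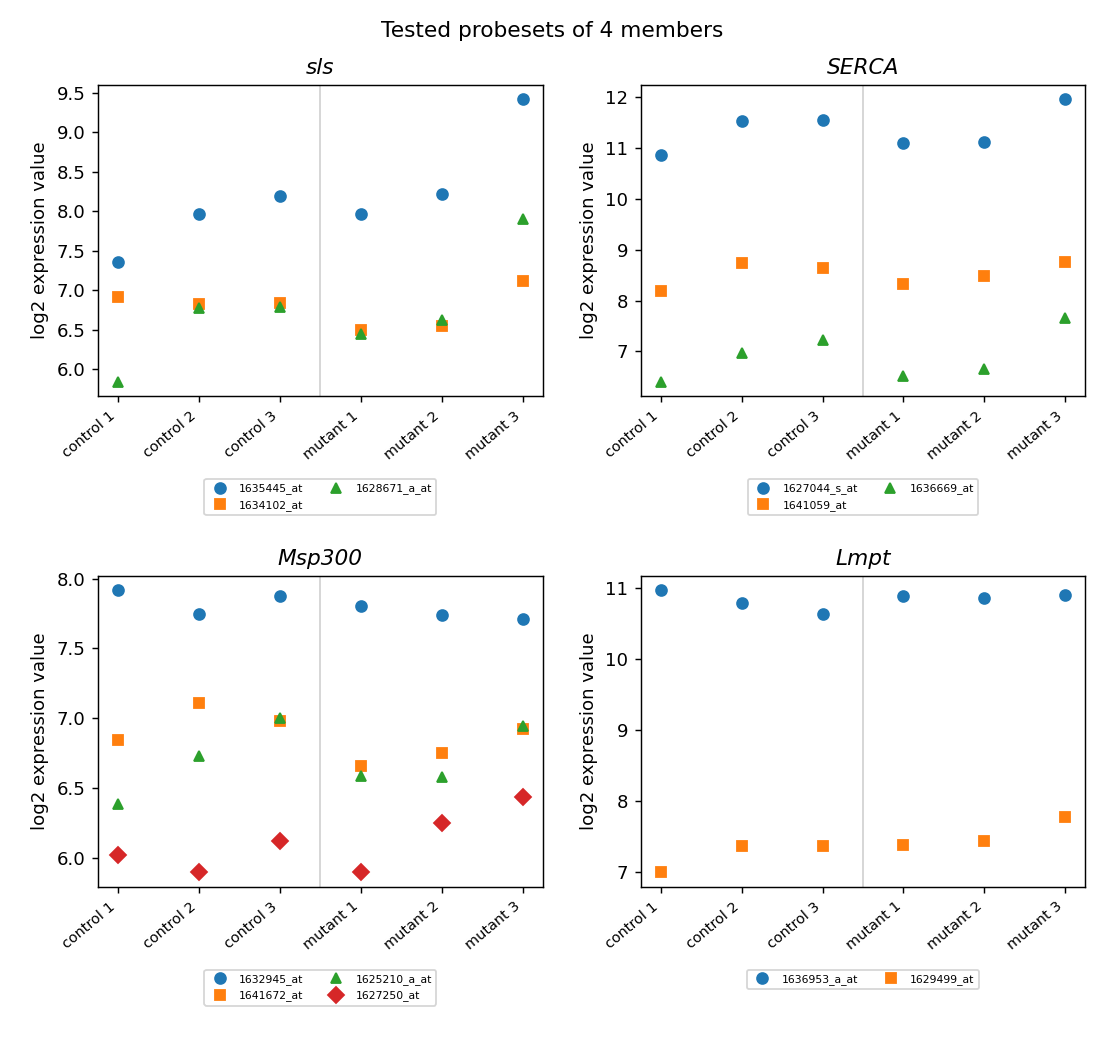
The panels give the log2 expression value (vertical) of every tested probeset of sls, SERCA, Msp300 and Lmpt on the 6 arrays (horizontal). All 3 probesets of SERCA are lowest on control replicate 1 and highest on mutant replicate 3, while in sls, Msp300 and Lmpt the brightest probeset (blue circles) and another one differ.

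The 7 wider muscle lists were not restricted to genes used in muscle alone, and their values are of whole larvae. Of their 54 tested genes 7 were lowest on control replicate 1 and highest on mutant replicate 3, as were 9 of the 19 filament and Z-disc genes and 5.36% of all tested genes. These were Argk1, Gpdh1 and sesB of the energy list, the actin gene Act87E, CAP, RyR and the muscle protein gene Mp20. Mp20 had 12.73, 13.18 and 13.31 in controls and 13.05, 13.17 and 13.39 in mutants. Of the 54 genes 0 were called by limma, with 1 higher and 3 lower at an unadjusted p under 0.05, and their median change was -0.014. The energy list (Argk1, Gpdh1, sesB, Pglym78 and Pfk) had a median deviation of -0.25 on control replicate 1 and 0.34 on mutant replicate 3, with 3 of its 5 tested genes lowest on the former and 5 of 5 highest on the latter. Gpdh1, glycerol-3-phosphate dehydrogenase, had 9.92, 11.06 and 10.79 in controls and 10.60, 10.86 and 11.29 in mutants, with overlapping groups (difference 0.33, SE 0.31; limma adjusted p = 0.775). Attachment and matrix genes (15 tested) deviated by 0.15 and -0.057 on these arrays, with 7 of 15 highest on control replicate 1, and excitation and calcium genes (11 tested) by 0.17 and -0.061. Median deviations were 0.0054 and -0.023 for actin and actin capping, 0.090 and -0.046 for the dystrophin complex, 0.10 and -0.0009 for chaperones, and 0.088 and -0.056 for identity and fusion. Median changes of these 7 lists lay between -0.12 for attachment and matrix and 0.098 for energy.

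Markers of the other tissues of the larva were mixed on these arrays. Of their 52 tested genes 3 were lowest on control replicate 1 and highest on mutant replicate 3: FASN1 and Desat1, both of lipid synthesis in the fat body list, and ng1 of the glue list. FASN1 had 11.28, 11.51 and 11.54 in controls and 11.33, 12.16 and 12.26 in mutants. Of the 8 tested fat body genes 6 were highest on mutant replicate 3 and 2 were lowest on control replicate 1. Median deviations on control replicate 1 and mutant replicate 3 were -0.0028 and 0.12 for 8 tested fat body genes, -0.16 and -0.22 for 10 gut genes, 0.088 and 0.018 for 8 salivary gland glue genes and 0.062 and -0.14 for 7 neuron genes. They were 0.17 and -0.11 for 8 hemocyte genes, -0.23 and 0.36 for 3 epidermis and cuticle genes, and 0.086 and -0.18 for 8 imaginal disc genes. The cuticle genes shared the signs on these arrays but not the rest of the order: their medians were -0.33 on both other controls and 0.28 and 0.25 on the other mutants. The mean level of these lists was 12.7 to 13.0 for fat body and 13.2 to 13.4 for salivary gland glue on the 6 arrays, so all pools held RNA of these tissues. The part of tissue proportions in the spread of the filament genes was not tested.

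**Figure D5:**
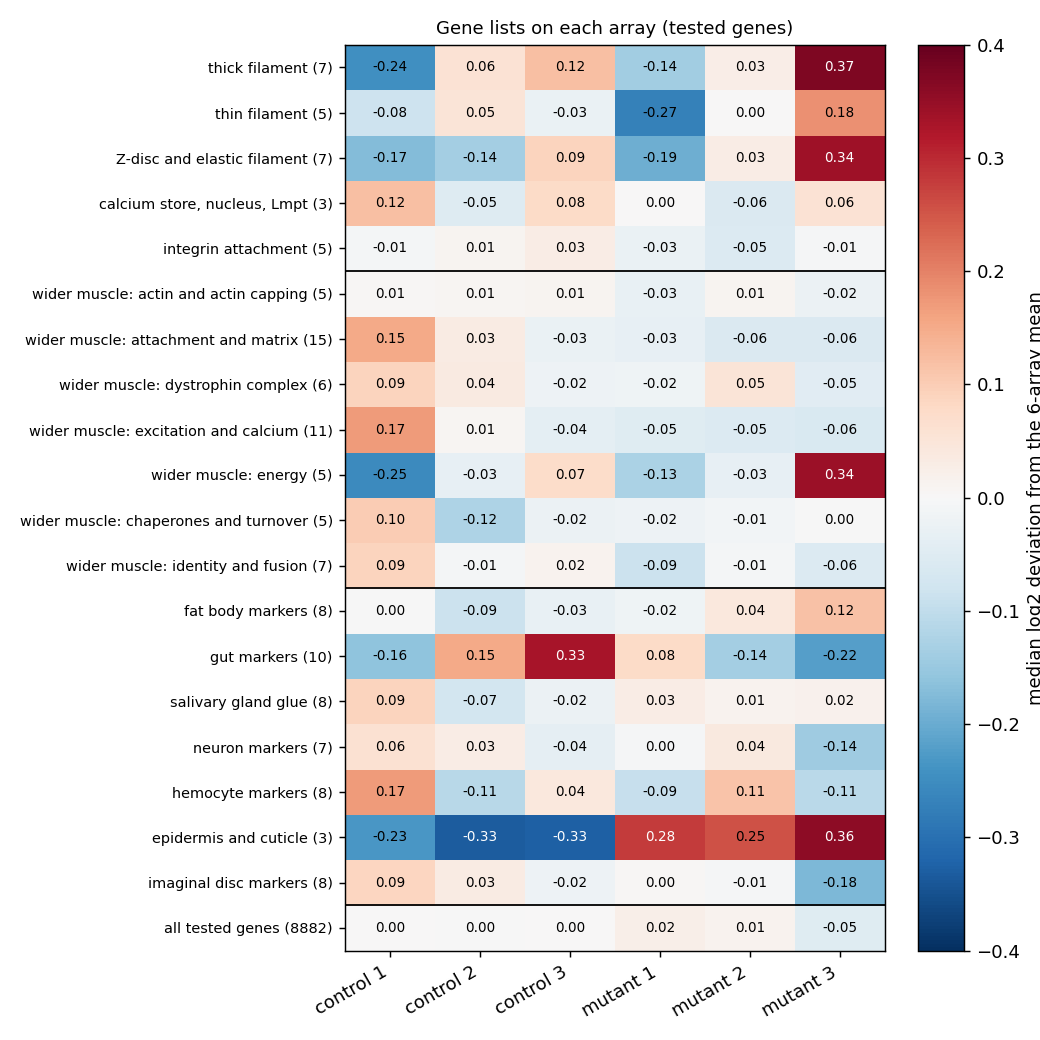
Rows are gene lists with the number of tested genes in brackets, columns are arrays, and each cell gives the median log2 deviation from the mean of 6 arrays, in red above 0 and blue below. Thick filament, Z-disc and energy genes are low on control replicate 1 and high on mutant replicate 3, and integrin attachment genes stay near 0 on all 6.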

How the data were processed

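RNA of 6 pools of 50 whole larvae was read on Affymetrix Drosophila Genome 2.0 arrays. The deposited values are log2 expression values, background corrected, normalized and summarized per probeset by the authors with RMA, per the series' design text. They were used as deposited. No scan date or batch is given in the sources used here, and the number of arrays limits the precision. Of 18952 probesets, 183 controls were left out, and 13647 have 1 gene symbol, of which 13544 were matched to RefSeq by gene number. The 40% of probesets with the lowest mean were left out, and the 3 mutant arrays were compared with the 3 control arrays over the other 11262 with limma 3.58.1 in R 4.3.3 (eBayes after lmFit, two-sided tests), with Benjamini-Hochberg adjustment over all of them. A call is an adjusted p under 0.05. The fit was tested on simulated data, in which 37.3% of changes of 0.5 log2 units, 85.1% of 1 and 95.5% of 2 were called. The simulated noise was independent between genes and arrays, so arrays that stand apart for many genes were not imitated. The authors' filter on present and absent calls could not be applied, since such calls are not used here. The text names every member, the 3 genes with the smallest p of each other list, any called gene of those lists and the 8 genes most like the members' median. RyR, Act87E, Mp20, Act88F, Act79B and TpnC4 were added after their values were seen. Members and lists were chosen with earlier results of these data known. Alternatives were other filters, quantile normalization, array weights, a trended prior variance, the mean over probesets, a replicate block and fits without each array. One control label spells the shared transgene differently, and the form used here is that of the genotype labels.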

Additional observations from a re-analysis of the deposited data

How the results depend on the processing

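No member was called in any alternative run. The smallest limma adjusted p-values were 0.0506 without control replicate 1 and mutant replicate 3, 0.229 with array weights and 0.426 with a replicate block. The 0.0506 is from a fit whose arrays were chosen after the values were seen. The same-numbered arrays of the groups correlated with 0.0529, -0.189 and 0.323 in their deviations, so the numbers were not taken as pairs. Over all probesets 62 were called. There were 27 with 60% left out, 232 with array weights, 28 with the replicate block and 13 to 86 when each array was left out. Array weights called 1 wider muscle gene, rols (-0.70, limma adjusted p = 0.0424), where 0 were called before. The count of members with r above 0.8 was 7 to 14 when each array was left out, and the median SD was 0.158 to 0.252, and 0.0714 without control replicate 1 and mutant replicate 3. The median change of the members was -0.057 to 0.159 when each array was left out. Cpr67B lost its call in 5 of 6 such fits, and PPO2 gained one without control replicate 1.

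Changes that turned sign were uncalled in every fit named here, and the cause was not tested. With quantile normalization Ilk was 0.00093 and up -0.016. With array weights Unc-89 was -0.48, SERCA -0.30, up -0.30, Tm2 -0.24, Zasp52 -0.13, Mlp84B -0.085, Mlc1 -0.052, Prm -0.016, Pglym78 -0.034 and sesB -0.026. Without control replicate 1 and mutant replicate 3, Unc-89 was -0.66, SERCA -0.44, up -0.43, Tm2 -0.36, Zasp52 -0.21, Mlp84B -0.17, Prm -0.16, Mlc1 -0.15, Mlp60A -0.096, bt -0.052, Gpdh1 -0.19, Pglym78 -0.079, sesB -0.057, ng1 -0.052, srp 0.029, GluRIIA 0.025 and Ddc 0.012. When each array was left out, the range was -0.25 to 0.12 for Actn (-0.34 without both arrays), -0.32 to 0.28 for Unc-89, -0.21 to 0.23 for SERCA, -0.21 to 0.17 for up, -0.17 to 0.21 for Tm2, -0.12 to 0.15 for Zasp52, -0.091 to 0.20 for Mlp84B, -0.086 to 0.41 for Prm, -0.016 to 0.34 for Mlc1, -0.23 to 0.030 for cher, -0.043 to 0.22 for TpnC41C, -0.067 to 0.063 for tmod (0.076 without both arrays) and -0.051 to 0.020 for Ilk. It was -0.0019 to 0.57 for Gpdh1, -0.048 to 0.19 for Pglym78, -0.025 to 0.17 for sesB, -0.024 to 0.17 for Scgalpha, -0.026 to 0.18 for stv, -0.13 to 0.0081 for GluRIIA, -0.23 to 0.022 for srp and -0.20 to 0.036 for Ddc. The highest such values of bt, Mlp60A and ng1 were 0.32, 0.48 and 1.04.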

Other observations

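Among the other muscle lists, rols, which codes for a scaffold of myoblast fusion that is also found at the Z-disc (3L), had the smallest p. It was 7.23, 7.12 and 6.75 in controls and 6.36, 6.16 and 6.33 in mutants. All mutants lay below all controls, with a change of -0.75 (SE 0.14; limma adjusted p = 0.108), and the change lay between -0.89 and -0.65 when each array was left out in turn. In the same list blow, a fusion gene, had -0.18 and the transcription factor salm -0.15. LanB2, the laminin gamma chain, had 9.86, 9.60 and 9.62 in controls and 9.47, 9.46 and 9.38 in mutants (change -0.26; limma adjusted p = 0.477). mew, the alpha integrin of the tendon side, had the opposite direction with 0.18 (limma adjusted p = 0.536), and Vinc, vinculin, had -0.21. The actin capping subunits cpb and cpa had -0.15 and -0.13, and CAP, an adaptor at muscle attachment sites, 0.14.

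In the dystrophin complex, Dys had a change of -0.19, Dg of -0.17 and Scgalpha of 0.081. Of the excitation and calcium list, Sln, which was listed by its symbol and whose place in that list is uncertain, had -0.23, the calcium-gated potassium channel slo -0.21 and the glutamate receptor subunit GluRIIA -0.079. RyR, the calcium release channel, had 5.06, 5.99 and 5.96 in controls and 5.69, 5.43 and 6.34 in mutants, lowest on control replicate 1 and highest on mutant replicate 3 as SERCA was. Of the energy list, sesB, the ADP/ATP carrier, had 0.10 and Pglym78, a phosphoglycerate mutase, 0.098. Of the chaperones, Txl had 0.18, Hsc70-4 -0.13 and stv 0.077. None of these had a limma adjusted p under 0.05 in the fit of 6 arrays, and rols had one with array weights (0.0424). Act88F, an actin of adult flight muscle (3.98 to 4.43), Act79B, an actin of other adult muscles (4.31 to 4.57), and TpnC4 (3.37 to 3.52) were below the level filter. They are named after their values were seen, and TpnC41C, which adult muscle also uses, was above it.

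Of the markers of other tissues, 2 were called. LysX, a gut lysozyme gene, had 11.66, 11.89 and 11.90 in controls and 9.995, 10.06 and 9.83 in mutants (change -1.86; limma adjusted p = 0.0015). Cpr67B, a cuticle protein gene, had 11.49, 11.39 and 11.40 in controls and 12.01, 11.98 and 12.08 in mutants (change 0.59; limma adjusted p = 0.0250). Its call was lost in 5 of the 6 fits that leave out 1 array (change 0.56 to 0.63), with the replicate block and without control replicate 1 and mutant replicate 3. For both the groups did not overlap, which held higher for 7.23% and lower for 9.09% of all tested genes. With array weights PPO2 (limma adjusted p = 0.0143), PPO1 (0.0247) and Lcp65Af (0.0345) were called too, and PPO2 also without control replicate 1 (-1.24, limma adjusted p = 0.0459). In the fit of 6 arrays, uncalled were betaTry (-0.76) and LysS (-0.63) of the gut, PPO2 (-0.98), PPO1 (-0.81) and srp (-0.14) of hemocytes, Syn (-0.43), nSyb (0.079) and Csp (-0.077) of neurons and Lcp65Af (1.83) and Ddc (-0.092) of the cuticle list. Also uncalled were FASN1 (0.47), Desat1 (0.43) and Fbp1 (0.28) of the fat body, ng1 (0.73), Sgs3 (-0.086) and Sgs4 (0.082) of the glue list, and nub (-0.28), en (-0.25) and ap (0.13) of imaginal discs.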
